A study of Mus musculus with 2 samples.

Results

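B cells were picked out of single-cell RNA sequencing (scRNAseq) libraries of NOD/ShiLtJ and CD1 mouse salivary glands by their own transcripts. A droplet barcode counted as a B cell when it held at least 5 UMIs (unique molecular identifiers, 1 per captured transcript) of Cd79a, Cd79b, Ms4a1 and Pax5 together. It could hold at most 1 UMI of the T-cell genes Cd3d, Cd3e and Cd3g, at most 1 of the macrophage genes C1qa and Csf1r, and at most 1 of the endothelial genes Pecam1 and Cdh5. In NOD/ShiLtJ 265 of 4917 kept barcodes met this rule, 5.39% with a 95% Clopper-Pearson interval of 4.77 to 6.06%. In CD1 9 of 5674 did, 0.159% (0.0726 to 0.301%), so that 274 of 10591 barcodes in all were B cells.

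The study set the NOD/ShiLtJ strain, an inbred model of the salivary gland autoimmunity of Sjögren's disease, against outbred CD1 mice. Both groups were untreated females of 20 weeks, without a transgene or gene deletion. Submandibular glands (SMGs) and the sublingual glands attached to them were pooled within each strain, from 4 mice by the study's methods and 3 by the sample labels, and depleted of EpCAM-positive epithelial and Ter119-positive red cells before capture. With 1 pooled library per strain there was no replicate, no test between strains was possible, and every interval below covers counting error only, since neither mice nor captures were repeated.

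The NOD/ShiLtJ B cells held 1829876 UMIs, with a median of 5977 per cell and a range of 599 to 54754. Their median mitochondrial share was 5.84%, against 4.75% over all kept NOD/ShiLtJ barcodes. The 9 CD1 B cells had a median of 7627 UMIs. No B-cell barcode was shared between the libraries, which shared 6 kept barcodes in all.

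B cells carry an immunoglobulin on their surface, whose signal runs through Cd79a and Cd79b, and they present what it captures to T cells on MHC class II. A naive cell carries IgM and IgD; after activation it may switch to IgG, IgA or IgE, enter a germinal centre, and become a memory cell or an antibody-secreting plasma cell. In glands with focal lymphocytic inflammation, B cells gather with T cells around the ducts, and some of these gatherings acquire follicles.

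The label was checked against the marker genes first. Ms4a1, which encodes CD20, gave 829 counts per 1000000 UMIs (CPM; 95% Poisson interval 788 to 872) in B cells and 1.47 CPM in T cells. These values only describe the rule, as do those of Cd79a and Pax5. Bank1, a B-cell adaptor that the rule did not use, stood at 3056 CPM in B cells and 4.76 in T cells. UMIs of Bank1 were in 95.5% of B cells and 3.97% of T cells, and with every cell thinned to 2000 UMIs in 93.5% and 0.95%. Cr2, the complement receptor CD21, had UMIs in 74.3% of B cells and 1.48% of T cells, or 49.6% and 0.475% after thinning. Per NOD/ShiLtJ B cell, Bank1 ran from 0 to 85 UMIs with a median of 18, and per CD1 B cell from 0 to 40 with a median of 24. T cells, which should lack both genes, had a median of 7290.5 UMIs against 5977 in B cells, and both genes were far above their T-cell shares. Free RNA also held Bank1, at 313 CPM in droplets of 10 to 100 UMIs. The label held by these values.

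Members lay well inside the marker limit, with a median of 28 UMIs of the 4 genes. Just inside it, 2 barcodes held 5 and 3 held 6, and just outside it 3 held 3 and 1 held 4. Scrublet placed 2 of the 265 NOD/ShiLtJ and 2 of the 9 CD1 B cells among its highest doublet scores.

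The limit on Pecam1 and Cdh5 mattered more than any other. Of 666 NOD/ShiLtJ barcodes with enough B-cell marker UMIs, it alone set aside 337, more than the rule kept; 331 of these had at most 1 Cdh5 UMI and 327 had none. T-cell genes alone set aside 23 and macrophage genes alone 3. Pecam1 encodes CD31, an adhesion molecule that is also known on leukocytes. The 331 set-aside barcodes with at most 1 Cdh5 UMI stood at 477 CPM of Pecam1 (451 to 504), and the endothelial cells at 1999.9. For Kdr, the endothelial VEGF receptor, they stood at 3.47 CPM (1.59 to 6.59) and the endothelial cells at 1858. The 10 endothelial genes on the list other than Pecam1 and Cdh5, Kdr among them, together came to 19.3 CPM in the set-aside barcodes, 18.0 in the B cells and 21.2 in the T cells.

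Set against the B cells kept, with plasma-type barcodes (defined below) left out of both, 1.9% of 9905 genes were past the fold upward and 1.24% downward. A gene was tested when it had at least 20 UMIs over both classes, and past the fold at a log2 ratio of 1 or more, or -1 or less. Not 1 of the 12 class II, 16 receptor signalling, 16 transcription factor or 9 naive follicular genes tested was past the fold. Among 11 genes of the receptor and its partners there was also none. Genes of the rule are left out of these counts and of every list count below. Counted by Cdh5 alone, NOD/ShiLtJ B cells were 596 of 4917 barcodes, 12.1% (11.2 to 13.1%), and CD1 B cells 13 of 5674. Results below are given for the rule and, where they differ, also with this wider set.

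**Figure D1:**
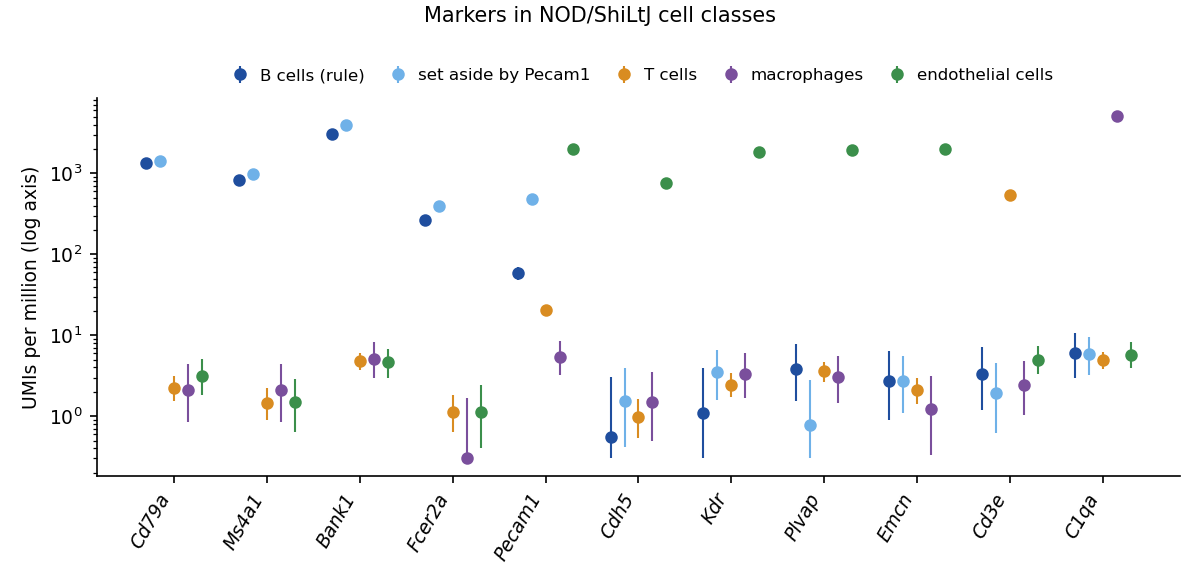
Level of marker genes in CPM (log axis; bars are 95% Poisson intervals of the counts, cut off near the lower end of the axis) in NOD/ShiLtJ B cells, barcodes set aside by Pecam1, T cells, macrophages and endothelial cells. Cd79a, Ms4a1, Pecam1, Cdh5, Cd3e and C1qa chose the classes and are description; of the genes that did not, the set-aside barcodes lie with the B cells in Bank1 and Fcer2a and with the non-endothelial classes in Kdr, Plvap and Emcn.

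B cells were next compared with the 1686 T cells of the same NOD/ShiLtJ library, chosen by a mirror of the rule. Of 13498 genes tested, 9.2% were past the fold upward in B cells and 19.5% downward, and the median log2 ratio over all of them was -0.24, to which list medians should be read.

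The antigen receptor and its partners came first. Of 11 tested genes 10 were past the fold upward and 0 downward, with a median log2 ratio of 6.25. The inhibitory lectins Cd22 and Siglecg stood at 214 (194 to 237) and 209 CPM in B cells, against 1.75 and 2.38 in T cells. Receptor signalling genes followed with 11 of 16 past the fold upward and a median of 2.44. Among them Blnk, the linker that the kinase Syk phosphorylates, had a log2 ratio of 7.81 (7.30 to 8.36), whereas Prkcb, a kinase upstream of NF-kappaB, had 1.95, with 301 CPM in T cells.

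Transcription factors of the lineage had 13 of 16 genes past the fold upward. Ebf1, which with Pax5 fixes B-cell identity, stood at 2685 CPM against 5.81 in T cells; endothelial cells, at 2359.8 CPM, also held it. Bach2, a repressor that keeps B cells from becoming plasma cells, stood at 1964 CPM against 232. Rag1, Rag2 and Igll1, which mark B-cell precursors in the marrow, had 0 UMIs, an upper limit of 1.64 CPM (3 counts over the 265 cells).

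All 12 tested genes of class II presentation were past the fold upward, with a median log2 ratio of 4.97. Cd74, the invariant chain, stood at 4639 CPM and was in every one of the 265 cells. H2-Aa stood at 2872 CPM and H2-Eb1 at 2380, against 79.7 and 75.2 in T cells. Macrophages held more, at 7659 CPM of H2-Aa and 7184 of H2-Eb1. The pair H2-Ob and H2-DMb2, which tune peptide loading, went the other way, with 298 and 389 CPM in B cells and 13.6 and 38.1 in macrophages. Ciita, the coactivator that turns the class II genes on, stood at 340 CPM in B cells and 307 in macrophages. H2-Ea had 3 UMIs in all B cells.

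Since these genes stood together, their promoters are shown. RefSeq windows of 300 bases (250 before to 50 after the gene start, build GRCm38.p6, not the NOD/ShiLtJ sequence) were matched by symbol for 7 of the 9 MHC class II genes on the list. The Y box of class II promoters, TGATTGG or its reverse CCAATCA, was in 6 of the 7, and in 7.82% of all 32851 windows. The letters were chosen with the windows in view, and a match is a description of the letters only. It was not found in the window of H2-DMa. In the 100-base stretches below, each written 5′ to 3′ on the gene's strand, capitals mark the match.
H2-Aa (chr17:34287821-34287920, minus strand, first base of the match at -50 from the start): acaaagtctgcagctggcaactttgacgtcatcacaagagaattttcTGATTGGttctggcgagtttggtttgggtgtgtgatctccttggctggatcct
H2-Eb1 (chr17:34305759-34305858, plus strand, match at -61): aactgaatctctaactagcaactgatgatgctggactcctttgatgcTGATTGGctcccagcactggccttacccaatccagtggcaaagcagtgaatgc
H2-DMb2 (chr17:34145110-34145209, plus strand, match at -92): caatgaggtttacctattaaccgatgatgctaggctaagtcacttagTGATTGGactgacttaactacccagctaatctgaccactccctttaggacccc
H2-Ob (chr17:34238799-34238898, plus strand, match at -59): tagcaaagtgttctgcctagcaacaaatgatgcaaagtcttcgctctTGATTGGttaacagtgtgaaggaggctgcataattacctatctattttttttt

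The octamer of immunoglobulin promoters, ATGCAAAT or its reverse ATTTGCAT, was searched for in the same way over 53 B-cell genes. It was in 3 of the 40 with a window, Blnk, Prkcb and Vpreb3, and in 1.74% of all windows. Vpreb3, a surrogate light chain partner, is shown because it stood at 63.9 CPM in B cells and 0.420 in T cells.
Vpreb3 (chr10:75948209-75948308, plus strand, first base of the match at -45): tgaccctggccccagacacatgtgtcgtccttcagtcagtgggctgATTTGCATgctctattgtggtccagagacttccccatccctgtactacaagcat

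Naive follicular genes were past the fold upward in 9 of 9. Fcer2a, the low-affinity IgE receptor CD23 of follicular B cells, stood at 268 CPM (245 to 293) and had UMIs in 64.2% of B cells and 0.890% of T cells. Fcmr, the receptor for IgM, stood at 377 CPM against 0.839. Among receptors for survival and help, 7 of 13 were past the fold upward and 1 downward. Tnfrsf13c, which encodes the BAFF receptor, stood at 262 CPM, Tnfrsf13b, its relative TACI, at 172, and Cd40 at 139. Tlr7, a sensor of single-stranded RNA, stood at 20.2 CPM against 2.45 in T cells.

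The ligands of these receptors lay in other cells. Tnfsf13b, encoding BAFF, had 0 UMIs in B cells (upper limit 1.64 CPM) and stood at 221 CPM in macrophages. Cd40lg also had 0 UMIs in B cells and stood at 117 CPM in T cells. Cxcl13, the follicle chemokine, had 0 UMIs in B cells and 5.45 CPM in macrophages. Icosl, the ligand that B cells offer to helper T cells, stood at 54.6 CPM in B cells and 5.95 in T cells. Ltb, a lymphotoxin subunit, stood at 677 CPM in B cells and 763 in T cells, while Il10 had 3.83 CPM in B cells and 9.23 in T cells.

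Homing receptors were split, 7 of 17 past the fold each way. Cxcr5, which draws cells to follicles, stood at 138 CPM against 10.8 in T cells, and Ccr6 at 178 against 20.5. Cxcr3, the receptor for interferon-induced chemokines, went the other way at 9.29 against 155, as did Itgb1 at 163 against 1235.

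Cycling and interferon response genes lay lower in B cells. No gene of the 13 tested in the cycling list was past the fold upward and 9 were downward, with a median of -2.07. Of 30 interferon response genes, 0 were past the fold upward and 17 downward, with a median of -1.30. Isg15 stood at 16.4 CPM against 70.7 in T cells and Iigp1 at 8.74 against 114. Of 17 activation genes 4 were upward and 8 downward, Cd83 with a log2 ratio of 3.95 and Cd86 with 2.38 among the former. Immediate early and heat shock genes had 2 of 18 each way and a median of 0.06.

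The other genes farthest upward, by the bound of the interval nearest to 0, included Mzb1, an endoplasmic reticulum chaperone of B cells, with a log2 ratio of 8.65, and Ly6d with 8.48. Mzb1 stood at 844 CPM, and at 445 without the plasma-type cells described next. Gm35545 and LOC105246083 had 9.14 and 9.25. Farthest downward were T-cell genes, led by Themis at -8.56, Bcl11b at -8.20 and Cd226 at -7.87.

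**Figure D2:**
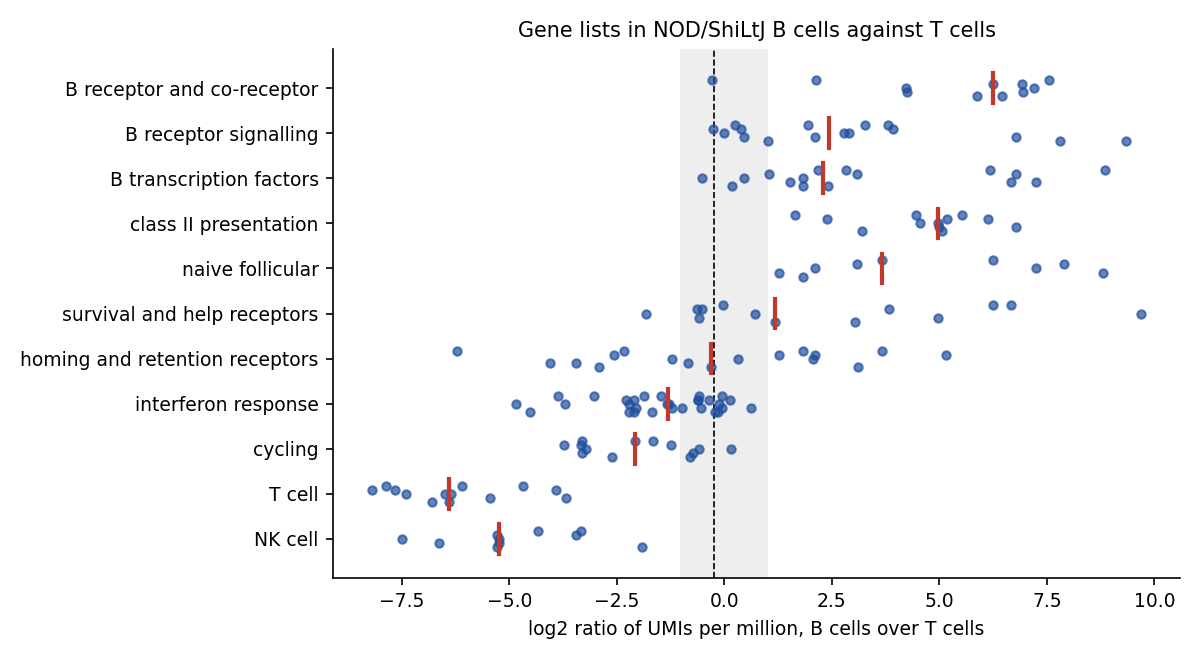
Log2 ratio of CPM in NOD/ShiLtJ B cells over T cells, 1 point per gene in 11 gene lists with the genes of the rule left out; red bars are list medians, the grey band spans -1 to 1 and the dashed line is the median of all tested genes. The medians of the receptor, class II and naive lists lie to the right of the band, those of the cycling and interferon lists to the left.

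A few B cells carried antibody transcripts at another scale. Jchain, which encodes the chain that joins IgA and IgM into polymers, had 20 or more UMIs in 14 of the 265 cells, from 37 to 5434, and at most 4 in any other. These plasma-type cells held 99.7% of all Jchain UMIs of the B cells, 99.5% of Igha and 95.2% of Igkc. Immunoglobulin and Jchain UMIs made up 3.46 to 49.1% of each, median 38.0%, against a median of 0.281% in the other 251. In 12 of the 14 Igha, the IgA heavy chain, led, and in 2 an IgG chain. The highest held 13984 Igha UMIs of 54754.

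The 14 met the rule mainly through Cd79a and Cd79b, as Ms4a1 was 0 in 12 of them and Pax5 in 13. Against the other 251, 7.58% of 7924 genes were past the fold upward and 45.3% downward, with a median over all genes of -0.87. The plasma cell list, with Jchain left out, had 8 of 9 genes upward. Sdc1, the plasma cell syndecan CD138, stood at 339.9 CPM against 1.31, and Xbp1, the secretory pathway factor, at 1314 against 44.7. Tnfrsf17, the survival receptor BCMA, had 106 UMIs in 11 of the 14 and 0 in the other 251, a log2 ratio of at least 7.44 with the 0 set at 3 counts over the group; the lower bound of the interval was 7.12. Ccr10, a homing receptor of IgA plasma cells, had 58 UMIs in 12 of the 14 and 0 elsewhere. Slpi, a secreted protease inhibitor, had 3390 UMIs in the 14 and 17 in the rest.

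Class II and naive genes lay at the other end, 12 of 12 and 9 of 9 downward. H2-Aa stood at 246 CPM against 3405, and Bank1 at 38.8 against 3669. Cr2, Ciita and Bcl11a had 0 UMIs in the 14. Because 14 cells held 308881 of the UMIs of all B cells, sums over B cells moved with them, and the splits below leave them out. In CD1, 2 of the 9 B cells were of this type, and of the Pecam1 set-aside 2 of 331. Both CD1 cells were among the highest doublet scores, and 1 of them held all 119 UMIs of the NK-cell list in CD1 B cells, so that it carried transcripts of a second lineage.

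Heavy chain class was read in each cell from 3 or more UMIs and a 3-times lead. By this, 133 of 265 cells were unswitched (Ighm and Ighd; 50.2%, 44.0 to 56.4%), 37 switched (14.0%, 10.0 to 18.7%) and 95 unassigned. All 14 plasma-type cells were switched, and without them 23 of 251 were (9.16%, 5.90 to 13.4%). T cells, which should lack these chains, gave 4.39% unswitched and 4.33% switched. Igha UMIs were in 49.8% of the 251 B cells and 51.2% of T cells, or 27.0% and 17.6% with every cell thinned to 2000 UMIs. The highest of the 251 held 15 Igha UMIs. The part of free RNA in these shares was not tested. Ighd, the IgD chain, stood at 218 CPM and was in 61.9% of B cells and 2.08% of T cells. Of the 9 CD1 cells 5 were unswitched, 2 switched and 2 unassigned.

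**Figure D3:**
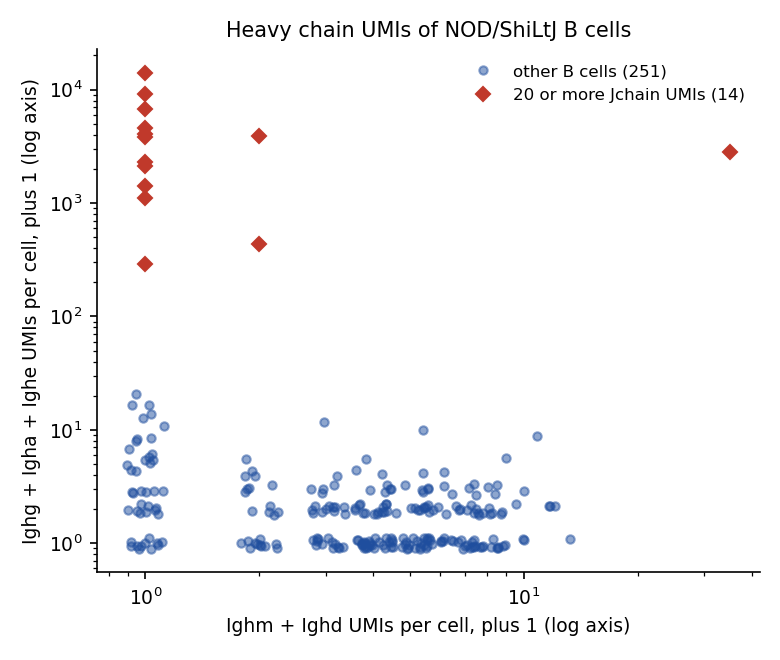
UMIs per cell of Ighm and Ighd against Ighg, Igha and Ighe, 1 added to each and both axes logarithmic, for 251 NOD/ShiLtJ B cells (circles, slightly jittered) and 14 with 20 or more Jchain UMIs (diamonds). The diamonds lie far up the switched axis, the circles near the origin and along the unswitched one.

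Light chains were called in fewer cells. Kappa led in 31 of 265 (11.7%) and lambda in 54 (20.4%, 15.7 to 25.7%), with 180 unassigned, and T cells gave 0.356% and 0.119%. In the 251 cells without the plasma type 18 were kappa and 54 lambda, whereas 13 of the 14 plasma-type cells were kappa. Most of the 251 held both chains, with Igkc UMIs in 89.6% (median 4) and Iglc2 UMIs in 85.3% (median 3). Iglc2 was also in all 14 plasma-type cells. The calls are therefore not read as the light chain that a cell uses. A heavy chain variable gene took at least 80% of the variable gene UMIs, with 3 or more, in 13 of the 14 plasma-type cells and 1 of the 251 others. Those 13 cells were led by 10 different genes, and 3 genes led 2 cells each; near-identical copies of these genes can share reads. The files also hold whole-locus rows Igh, Igk and Igl with 0 UMIs. On GRCm38.p6 these rows span all of Igkc, Iglc1, Iglc2 and Iglc3. They also span all of Ighm, Ighd, Ighg1, Ighg2b, Ighg2c, Ighg3 and Ighe, but only 36.4% of Igha. A lead of Igha over an IgG chain is therefore read across unlike overlaps. How a read over both rows was counted was not stated, so levels and shares of these chains are uncertain.

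Cr2 varied widely from cell to cell, from 0 to 19 UMIs with a median of 2. Of 265 cells 99 held 3 or more (37.4%, 31.5 to 43.5%), 98 held 1 or 2, and 68 held 0, among them all 14 plasma-type cells. These are ranges along a scale and not types. With plasma-type cells left out, the 99 Cr2-high cells had a median of 5959 UMIs and the 54 Cr2-zero cells 6142.5. In this contrast 4.67% of 6130 genes were past the fold upward and 3% downward.

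Genes of B-cell identity did not separate the high from the zero cells by this fold. Among 10 receptor, 16 signalling, 16 transcription factor, 11 class II and 9 naive genes tested, 0 were past the fold either way. Fcer2a came nearest, at 371 CPM in Cr2-high and 186 in Cr2-zero cells, a log2 ratio of 0.997 (0.59 to 1.43), and Ighd had 0.59 (0.17 to 1.03). Marginal zone B cells are known for high Cr2 with low Fcer2a, and among that list's 5 tested genes 0 were upward and 1, Dtx1, downward.

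Single genes did separate them. Cpne4, which encodes a copine, a calcium-dependent membrane-binding protein, had 171 UMIs in 59 of 99 Cr2-high cells and 24 in 12 of 54 Cr2-zero cells. That is 268 CPM against 73.1, a log2 ratio of 1.87 (1.25 to 2.55), or 1.16 (0.87 to 1.47) in the wider set. The gap was smaller inside the larger sub-clusters described below. Cpne4 stood at 305 CPM against 139 in sub-cluster 1 and at 310 against 120 in sub-cluster 2. In sub-cluster 3 it had 4 UMIs against 1. Zfp318, which is needed for IgD expression, had a log2 ratio of 1.49 (0.95 to 2.08), and 0.68 in the wider set.

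Lower in Cr2-high cells were Apoe, a lipid carrier, at 111 CPM against 878, a log2 ratio of -2.98 (-3.38 to -2.60). Itgb1, the beta 1 integrin, had -2.36 (-2.91 to -1.84), Lgals1, a galectin, -4.25, with 31 of its 39 UMIs in 1 Cr2-zero cell, and Anxa2, an annexin, -3.62. The groups lay in different sub-clusters (described below): sub-cluster 3 held 21 of the 54 Cr2-zero and 10 of the 99 Cr2-high cells, with 276 and 48 of their Apoe UMIs. Inside it Apoe stood at 504 CPM in Cr2-high and 1771 in Cr2-zero cells. In sub-cluster 2 the levels were 20.7 (5 UMIs) and 221 (11 UMIs). In sub-cluster 1 Apoe went the other way, at 59.8 (18 UMIs) and 8.17 (1 UMI). Itgb1 did not differ in this way in sub-cluster 1, at 29.9 CPM in Cr2-high and 32.7 in Cr2-zero cells. It stood at 41.3 (10 UMIs) and 241 (12 UMIs) in sub-cluster 2, and at 241 (23 UMIs) and 610 (95 UMIs) in sub-cluster 3. Only 9 Cr2-zero cells lay in sub-cluster 2, among them the Gzma-rich barcode described at the end of this paragraph. In the wider set of 257 and 129 cells Apoe, Itgb1, Lgals1 and Anxa2 had log2 ratios of -2.33, -1.53, -3.14 and -1.84. The cytotoxic genes Gzma, Nkg7 and Ncr1 were also lower, but 1 barcode held 98 of the 108 Gzma UMIs of all B cells; it had a marker sum of 6, 26 Nkg7 UMIs and 0 of Cr2.

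Memory and age-associated genes had 0 of 6 upward and 2 downward, with a median of -0.72, and in the wider set 0 and 4 of 9, where 3% of 9060 genes were upward and 2.37% downward. Summed over the list, the log2 ratio was -0.73 (-0.92 to -0.53) without plasma-type cells and -0.12 (-0.30 to 0.06) with them. With them it was 0.10 (-0.21 to 0.41) at a limit of 5% mitochondrial UMIs. It was 0.59 after subtraction of a free RNA share estimated from secretory genes, but -0.12 when that share came from endothelial and stromal genes. In the wider set Zeb2, a factor of age-associated B cells, stood at 142 CPM in Cr2-high against 323 in Cr2-zero cells, and Nt5e, the ectonucleotidase CD73 of memory B cells, at 4.65 against 25.9. Interferon response genes had 1 of 17 upward under the rule and 7 of 23 in the wider set, where Rtp4 had 30 UMIs in 23 cells against 3 in 3. The direction of each of these lists is a description of cells chosen by Cr2.

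**Figure D4:**
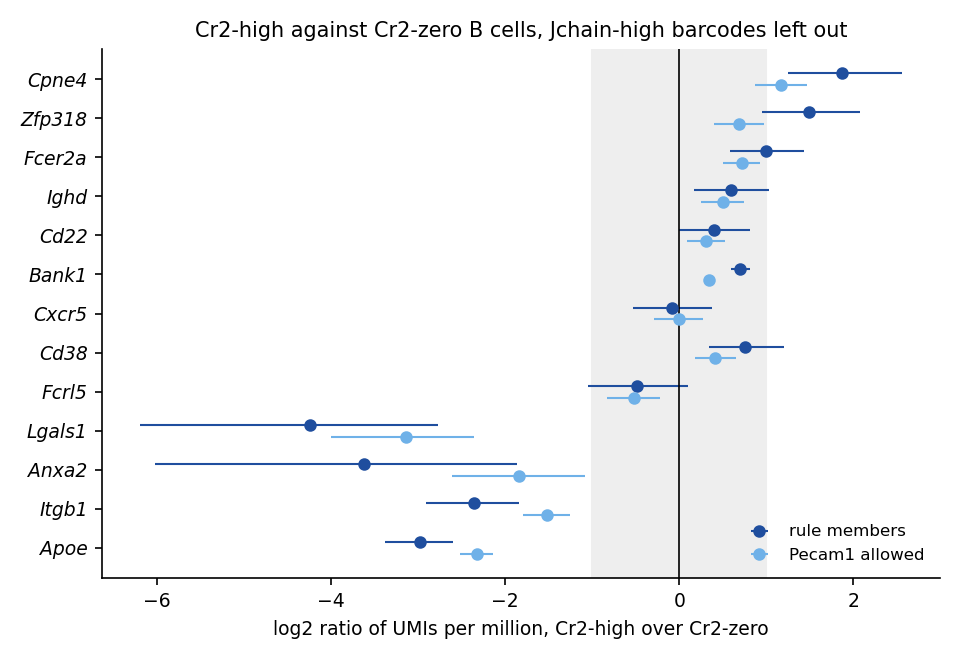
Log2 ratio of CPM in Cr2-high (3 or more UMIs) over Cr2-zero NOD/ShiLtJ B cells, 1 gene per row, with 95% conditional binomial intervals, under the rule and in the wider set that allows Pecam1; plasma-type cells are left out of both. Cpne4 lies to the right of 0 and Apoe, Itgb1 and Lgals1 to the left in both sets.

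Genes most like Cr2 were ranked by Spearman's rho over 262 cells thinned to 2000 UMIs, plasma-type cells included, among 3013 genes. Bank1 led with 0.357, followed by Cd22 with 0.295; Cpne4 had 0.257 and Bach2 0.224. Over the 592 cells of the wider set the same genes had 0.215, 0.083, 0.146 and 0.199. Itgb1 had -0.202 and -0.174, and Mzb1 -0.219 and -0.091. The 14 plasma-type cells held 0 UMIs of Cr2, with Bank1 at 38.8 CPM against 3669 in the other 251 and Bach2 at 35.6 against 2355. Their part in these rho values was not tested. All of them are weak correlations in sparse counts of 1 library and carry no test.

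Activation was graded by the share of a cell's UMIs in 18 activation genes, among them Cd69, Cd83, Cd86, Nr4a1 and Myc. The share ran from 0 to 0.470% with a median of 0.127%, with no gap between low and high cells. The 63 cells highest in it, plasma-type cells left out, had a median of 0.241% and 6088 UMIs, and the 63 lowest 0.049% and 5405 UMIs. Of 5322 other genes 4.75% were past the fold upward and 3.63% downward. Receptor, signalling, class II and naive lists had 0 genes past the fold.

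Immediate early and heat shock genes, which any cell can induce within minutes, had 6 of 13 upward and 0 downward, with a median log2 ratio of 0.90. The activation genes that chose the cells include early response genes of the same kind, such as Nr4a1 and Myc. The direction was therefore partly set by the choice of cells and is description. Fos had 208 CPM against 69.5, a log2 ratio of 1.58 (0.90 to 2.31), and Dusp1, a phosphatase that ends MAP kinase signals, 3.08 (1.40 to 5.43). Jun had 0.06. Glands were digested with enzymes before capture, and the part of that step in these values was not tested.

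Among other genes high in these cells, some were held unevenly. Ccnd2, a cyclin of the early cell cycle, had 77 UMIs in 15 cells, 36 of them in 1, against 9 in 6. Apoe had 247 in 22 against 54 in 14, and Lmnb1, a nuclear lamin, 38 in 20 against 4 in 4. Mreg had 30 in 6 cells against 0. Lower were Adam19, a metalloprotease, at -2.30, and the secretory gland transcripts Mucl2 at -1.48 and Scgb1b27 at -1.99, which B cells are not known to make.

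Genes of germinal centre and dividing cells were found together in few B cells. At least 3 of 11 germinal centre genes were found in 3 of 251 cells (1.20%, 0.247 to 3.45%), and 3 or more of 14 cycling genes in 8 (3.19%, 1.39 to 6.18%). T cells gave 1.54% and 9.25% on the same lists, so that the germinal centre share was no higher in B cells than in T cells. These shares were not thinned to equal depth, with a median of 7290.5 UMIs in T cells and 5894 in the 251 B cells. A single cell held 7 genes of each list. Mki67 stood at 2.63 CPM in the 251 and 45.8 in T cells.

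Unsupervised clustering of the 265 cells, without the genes of the rule, gave 4 sub-clusters. Their sizes and leading genes are descriptions, and a name needed raised genes of a marker list and at least 1 gene of that list among the 8 leading genes. Sub-cluster 1 held 133 cells (50.2%). Fcer2a stood there at 414 CPM, Ighd at 326 and Vpreb3 at 102. It kept no name, since none of its leading genes, Gad1, Wfdc17, Rflnb and the secretory gland transcripts Scgb2b27 and Mucl2 among them, was on the naive follicular list.

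Sub-cluster 2, 62 cells (23.4%), kept no name. Ighd at 382 CPM and Fcer2a at 441 were at the level of sub-cluster 1, and Cr2 at 706 CPM was the highest of the 4. Set against all other B cells, 1 of 18 tested interferon response genes was raised. Of 18 interferon response genes with 20 or more UMIs in sub-clusters 1 and 2 together, 16 stood higher than in sub-cluster 1 and 2 lower, where 54.8% of all 6450 such genes stood higher. All 30 on the list came to 2757 CPM (2588 to 2934) against 1921 (1822 to 2024). Isg15 stood at 44.6 CPM against 9.50, Rtp4 at 30.7 against 6.79, Usp18 at 33.5 against 4.07 and Bst2 at 142 against 43.4. Ifit3 had 11 UMIs, in 5 cells, against 0. Irf1 at 162 against 164 and Ifi203 at 268 against 297 did not follow, nor did Iigp1 with 0 UMIs against 10. Gzma, Nkg7 and Ncr1 led it through the 1 barcode named above, followed by Rnf213, Gm57827 and Ifi206.

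Sub-cluster 3 held 57 cells (21.5%), 1 of them the plasma-type cell with 37 Jchain UMIs. Of 9 tested genes of the memory and age-associated list 4 were raised, as were 3 of 6 of the B1 list, which describes innate-like B cells, against 1.4% of all 7924 genes. It kept no name, since none of these was among its leading genes. Fcrl5, an Fc receptor-like protein of memory and innate-like B cells, stood at 332 CPM against 14.9 in sub-cluster 1, and Itgb1 at 467 against 35.3, or 399 without the plasma-type cell. Cd80, a costimulatory ligand, and Nt5e stood at 45.8 each against 5.43. Of the genes known for age-associated B cells, Itgax had 0 UMIs, and Tbx21 stood at 9.16 CPM, against 4.07 in sub-cluster 1 and 39.1 in sub-cluster 2. In sub-cluster 2, 1 cell held 8 of the 14 Tbx21 UMIs. Zeb2 stood at 268 CPM (222 to 321), against 234 in sub-cluster 2 and 136 (110 to 165) in sub-cluster 1. Cd27 at 11.4 against 19.0 and Cd38 at 227 against 316 were lower than in sub-cluster 1. Cr2 stood at 181, Fcer2a at 64.1 and Ighd at 48.1. The raised B1 genes were Bhlhe41, Spn and Ahr, with Bhlhe41 at 54.9 against 10.9.

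Apoe was among its leading genes. The sub-cluster held 700 of the 749 Apoe UMIs of all B cells, in 45 of its 57 cells, and 37 cells had 5 or more. Macrophages stood at 5041 CPM of Apoe. The other 9 genes of the macrophage list outside the rule together came to 20.6 CPM (9.42 to 39.1) in sub-cluster 3, with 5 of the 9 at 0 and Adgre1 highest at 6 UMIs, against 25.8 in sub-cluster 1 and 9115 in macrophages. The rule's limit on C1qa and Csf1r bears on these low values, and the part of macrophage RNA in the Apoe level was not tested. The others were Pdzd2, Cdk14, Parm1, Sox5, Lmo7, Agbl1 and Tbc1d9. When the 596 cells of the wider set were clustered anew, 52 of the 57 came together in 1 cluster of 125 cells, which was led by Apoe and had 5 of 11 tested memory and age-associated genes raised, against 0.935% of all 10158 genes. Zbtb32, on both the memory and the B1 list, was among its leading genes. The 133 cells of sub-cluster 1 fell into 4 of the new clusters, at most 60 in 1, and the 62 of sub-cluster 2 into 4, at most 26 in 1, so neither recurred as a group. A new cluster of 111 cells, with 19 of the 62 and 16 of the 133, had Usp18, Ifit3, Ifit1 and Ifit2 among its leading genes. It kept no name. At resolution 1.0 under the rule, a sub-cluster of 25 cells with Isg15 among its leading genes took the interferon response name.

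Sub-cluster 4, plasma cell-like, held 13 cells (4.91%) with a median of 20576 UMIs, all of them among the 14 plasma-type cells. Jchain stood there at 96320 CPM. In the wider clustering all 13 came together again, in a cluster of 17.

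**Figure D5:**
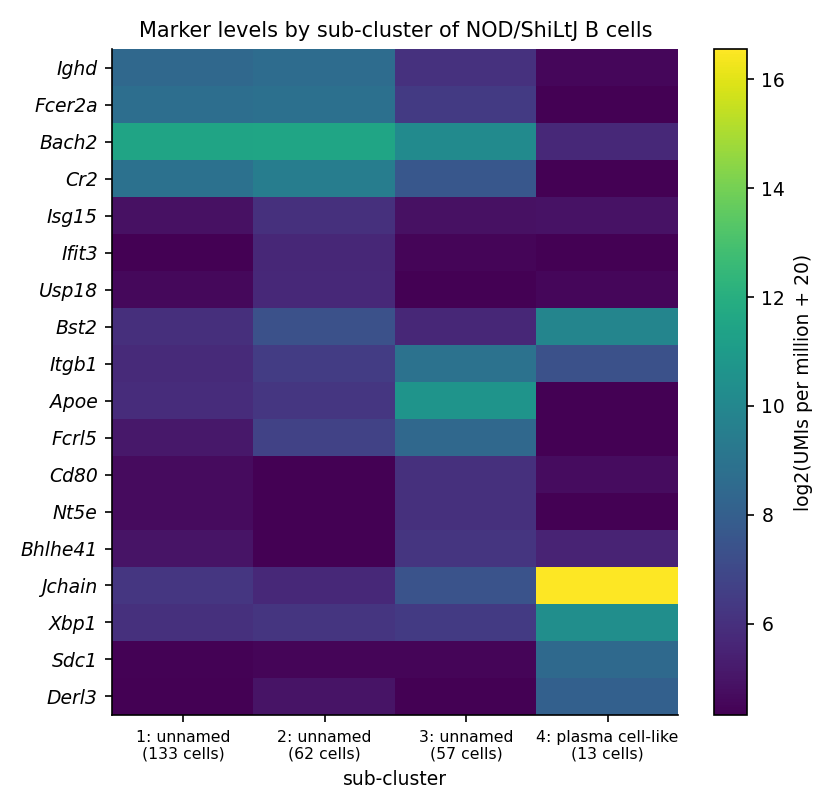
Level of genes of the marker lists, as log2 of CPM with 20 added, in the 4 sub-clusters of NOD/ShiLtJ B cells; yellow is high and dark blue low. Fcer2a and Ighd are higher in sub-clusters 1 and 2, Apoe, Fcrl5 and Itgb1 in 3, and Jchain, Xbp1 and Sdc1 in 4.

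CD1 glands held 7 B cells once the plasma type was left out, with 44874 UMIs, so the strains are set side by side with wide intervals. Of 7557 genes 8.09% were past the fold upward in NOD/ShiLtJ and 11.1% downward, with a median of 0. Class II genes had 0 of 12 past the fold, and Cd79a stood at 1554 CPM in NOD/ShiLtJ and 1582 (1236 to 1996) in CD1. Cr2 stood at 440 against 156 (62.7 to 321), with UMIs in 197 of 251 and 3 of 7 cells. Cxcr5 was lower, at 166 against 446 (272 to 688).

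Interferon response genes stood higher in NOD/ShiLtJ B cells. The 30 genes came to 2002 CPM (1932 to 2074) against 602 (397 to 875, from 27 UMIs), a log2 ratio of 1.73 (1.19 to 2.34), and 6 of 18 tested genes were upward and 0 downward. Gvin3, an interferon-inducible GTPase family gene, stood at 1107 CPM against 111, from 5 UMIs in 1 cell.

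The same list was also higher in the other NOD/ShiLtJ cells and droplets. Its log2 ratio was 0.91 (0.85 to 0.97) in T cells, 1.47 (1.43 to 1.5) in macrophages, 0.94 (0.92 to 0.96) in endothelial cells and 0.84 (0.80 to 0.89) in droplets of 10 to 100 UMIs. Gvin3 had 5.67, 7.53 and 3.72 in the 3 cell classes, and Ly6e -1.91, -1.06 and -0.42. Strain, library and capture cannot be told apart here. Klk1 and Prol1, secretory gland transcripts, led the genes lower in NOD/ShiLtJ B cells, at 19.7 against 245 and 76.9 against 646 CPM; in the droplets of 10 to 100 UMIs 19 epithelial and secretory genes came to 159 CPM in NOD/ShiLtJ and 1705 in CD1, and the part of free RNA in these values was not tested.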

How the data were processed

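The authors deposited raw UMI counts per gene and barcode for 1 pooled library per strain. Per the file headers these come from Cell Ranger 8.0.0 with no filter on cells; the submitters' processing notes also name build GRCm39, Seurat 5.0.1 and R 4.3.1. Depth was 52790319 UMIs in NOD/ShiLtJ (1298073 barcodes) and 56483149 in CD1 (1331542 barcodes). No annotation of cells was used, and the study's reads were not realigned.

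Barcodes with at least 500 UMIs, 300 genes and at most 10% of UMIs in 37 mitochondrial rows were kept. T cells, macrophages and endothelial cells needed 5 UMIs of their rule genes and at most 1 of each other class. Counts were summed per class and given as CPM with Poisson intervals, shares with Clopper-Pearson intervals and ratios with conditional binomial intervals, all at 95% and for counting error only; reads over neighbouring or near-identical genes may be split. A gene at 0 in a class was set against 3 counts over that class. Doublets were left to the rule, with Scrublet scores as an alternative. Clustering (scanpy 1.11.5, Python 3.11.15, scipy 1.17.1) used 1500 variable genes, 15 components, 15 neighbours and Leiden resolution 0.6; a sub-cluster took a list's name at 3 or more raised markers (a log2 ratio of 1 with 20 CPM added, in 10% of cells) and a lead over the next list, with at least 1 of that list's genes among its 8 leading genes, a condition added after seeing the data.

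The members and gene lists were chosen with earlier results of these data known. Beside list genes, the text draws on the 10 genes farthest in each direction by the interval bound nearest to 0, the 8 leading genes of a sub-cluster and the 10 most like Cr2. Leaving out barcodes with 20 or more Jchain UMIs, limiting endothelial genes to Cdh5, leaving out the NK-marker barcode and a free RNA share from endothelial and stromal genes were chosen after seeing the data. The summing and interval steps were tested on simulated data. Some genes of the lists are not reported by name here.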

Additional observations from a re-analysis of the deposited data

Results flagged for a closer look

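Among NOD/ShiLtJ barcodes above the limit of 10% mitochondrial UMIs, 113 met every marker limit for B cells, and 0 did in CD1. They were 29.9% of all 378 NOD/ShiLtJ barcodes that met those limits at any mitochondrial share, while 6.07% of T cells and 24.4% of all barcodes were above it. Of the 113, 66 lay between 10 and 20% and 47 above.

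The limit on Pecam1 and Cdh5 alone set aside 337 NOD/ShiLtJ barcodes with the B-cell marker sum, against 6 in CD1. Their values stand in the report.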

How the results depend on the processing

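No paired analysis was possible because each strain had 1 library and no replicate. No result changed its sign where its interval excluded 0. The NOD/ShiLtJ B-cell share moved to 3.10% with at most 5% mitochondrial UMIs, 2.68% with no UMI of other lineages, 12.1% with the endothelial limit on Cdh5 alone and 11.8% with plasma-type cells also left out; the CD1 share moved to 0.0529% with no UMI of other lineages. The switched share moved to 22.6% at 5% mitochondrial UMIs, 9.16% without plasma-type cells and 8.28% with Cdh5 alone as well, and the lambda share to 11.3% at 5 UMIs and a 5-times lead. Cells with a called heavy chain variable gene went from 14 to 1 without plasma-type cells and 4 with Cdh5 alone as well. Resolution 1.0 gave 8 sub-clusters in place of 4.

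The memory list in Cr2-high over Cr2-zero cells, -0.12 (-0.30 to 0.06) with all cells, moved to 0.10 at 5% mitochondrial UMIs, -0.35 with Cdh5 alone, -0.73 without plasma-type cells, -0.65 with both, -0.68 without those and the NK-marker barcode, -0.43 with equal weight per cell, 0.59 with free RNA subtracted, -0.46 under median-of-ratios scaling and -0.83 in the middle range of depth; its direction rests on these choices. The immediate early list along the activation share, 0.49, moved to 0.68 at 20% mitochondrial UMIs, 0.61 at a marker sum of 10, 0.25 with no UMI of other lineages, 0.71 with Cdh5 alone, 0.63 without plasma-type cells, 0.79 with both, 0.62 with equal weight, 0.64 with free RNA subtracted and 0.32 for the upper against the lower 133 cells. The class II list in B over T cells, 5.04, moved to 4.30 at 5% mitochondrial UMIs, 5.14 at a marker sum of 10, 5.69 with no UMI of other lineages, 5.13 with Cdh5 alone, 5.25 without plasma-type cells, 5.23 with both, 6.14 with equal weight, 9.13 with free RNA subtracted, 5.47 with that share from endothelial and stromal genes and 5.25 under median-of-ratios scaling. The interferon list in NOD/ShiLtJ over CD1 B cells, 1.62 with plasma-type cells, moved to 0.94 with Cdh5 alone, 1.26 with free RNA subtracted and 1.16 under median-of-ratios scaling; the median over all genes in that contrast was 0.35. The causes were not tested. Free RNA came to 51.5% of B-cell and 16.4% of T-cell UMIs by epithelial and secretory genes, but to 2.02% and 2.06% by endothelial and stromal genes, so values with the larger shares subtracted are not relied on; with the smaller shares, added after seeing the data, the other 3 lists stayed within their intervals.

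CD1 values rest on 9 cells with 114547 UMIs, and on 7 with 44874 without plasma-type cells; the other alternatives left each share and log2 ratio within its interval.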
